A study of Mus musculus with 35 samples.

Results

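Among the 9 genes described here are those of the PGC-1 coactivators (Ppargc1a and Ppargc1b), the estrogen-related receptors that they bind (Esrra, Esrrb and Esrrg), and the ERR partner Perm1. The others encode NRF1, GABPA and TFAM, factors that carry the same program to the mitochondrial genome. All 9 genes were taken by gene symbol, and each matched 1 of the 55421 gene identifiers counted in every one of the 35 libraries. Interscapular brown adipose tissue (iBAT) came from male C57BL/6J mice aged 9 to 10 weeks, fed standard chow. Room temperature (RT) controls stayed in the colony at 24 °C, and the other mice lived at 6 °C for 6 hours or for 1, 2, 3, 4 or 5 days, with 5 mice and 5 libraries in each of the 7 groups. Cold-exposed mice lived singly and without nests, so the effect of housing and the effect of temperature cannot be told apart.

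PGC-1 proteins do not bind DNA themselves. They dock on nuclear receptors and other transcription factors and raise transcription of genes for mitochondrial respiration and fatty acid oxidation. In brown fat, noradrenaline released in the cold raises cyclic AMP, and Ppargc1a is a classical target of this signal. ERRs are orphan receptors, active without a known natural hormone, that recognise the core AAGGTCA. NRF1 and GABPA act on promoters of nuclear genes for respiratory subunits and for TFAM. The TFAM protein packages mitochondrial DNA and activates its transcription.

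The libraries read the 3′ end of each transcript and held 3846016 to 6047247 counts. Before normalisation 1 read was thus worth at most 0.26 CPM (counts scaled to a common library total). Mitochondrially encoded genes held 33.6% to 46.2% of the counts of a library. The brown fat markers were high in all 35 libraries, with Ucp1 between 1290 and 9116 normalised CPM and Cidea between 1816 and 3080. Levels below are CPM normalised by edgeR's TMM factors over the 35 libraries, and changes are log2 fold changes with their standard errors (SE) from edgeR's quasi-likelihood test on the 10 libraries compared, with the Benjamini-Hochberg adjusted p over all genes tested. A gene was called when this adjusted p was below 0.05. As whole tissue was sequenced, fewer cells of a type and less RNA per cell cannot be told apart.

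Ppargc1a, Esrra and Perm1 rose in all 6 cold groups, Ppargc1b was lower from 2 days on, and Tfam was called in none. Against RT, 4 of the 8 members tested were called after 6 hours, 3 higher and 1 lower, beside 42.5% of all genes tested (21.5% higher, 21% lower). At 1 day 3 of 8 were called, 3 higher and 0 lower, beside 36.7% of all genes (18.9% higher, 17.8% lower). At 2 days it was 5 of 8, 4 of them higher, beside 31.2% (16.4% higher, 14.7% lower). At 3 days 4 of 8 were called, 3 of them higher, beside 33.8% (18.3% higher, 15.5% lower). At 4 days the count was 6 of 9, 5 of them higher, beside 38% (19.4% higher, 18.6% lower). These include Esrrb, which entered that test only because its cold group was high, and without it the count was 5 of 8, 4 of them higher. At 5 days it was 5 of 8, 4 of them higher, beside 38.8%. Over the same 6 comparisons in this order, the share of all genes tested whose groups did not overlap at all was 28.5%, 25%, 20.2%, 21.9%, 25.1% and 24.6%. At 6 hours and 1 day the share of members called lay near that of all genes and is no result about the list, and what follows concerns single members. The median log2 fold change of the members tested was 0.34 after 6 hours and 0.28 after 5 days, beside -0.03 and -0.02 over all genes tested. All 6 of these comparisons use the same 5 control mice. In an F test over the 7 groups, 7 of the 9 members differed between groups, where 60.4% of all genes did, with Esrrb again kept by its cold groups, and the exceptions were Nrf1 (adjusted p = 0.349) and Tfam (adjusted p = 0.632).

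**Figure D1:**
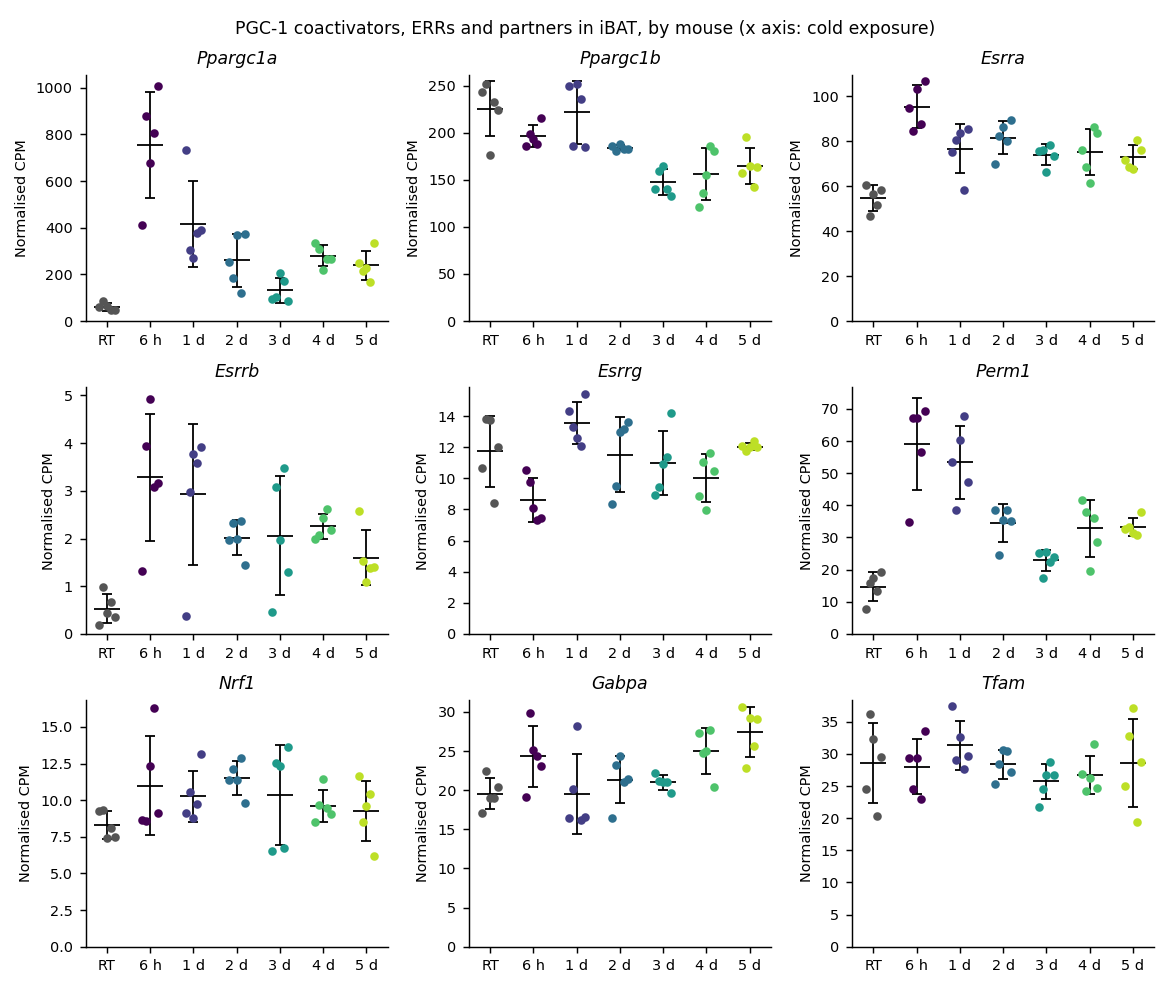
Normalised CPM (y axis, from 0) of the 9 members in each mouse (points) by cold exposure (x axis), with the mean and SD of 5 mice as bars. Ppargc1a ran from 45.9 to 86.1 CPM at RT and from 411 to 1008 CPM after 6 hours, while the Tfam values of all groups overlapped.

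Ppargc1a was the member with the largest response, and its time course had an early peak and a low at 3 days. In the 5 RT mice it stood at 60.0, 86.1, 65.7, 46.5 and 45.9 CPM. After 6 hours of cold exposure it was at 411, 880, 678, 805 and 1008 CPM, with every mouse above every control. The change was 12.3-fold, with a log2 fold change of 3.62 (SE 0.22, adjusted p = 1.2e-09).

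After 1 day the 5 mice had 734, 304, 268, 379 and 390 CPM of Ppargc1a (log2 fold change against RT 2.77, SE 0.25, adjusted p = 3.9e-07). The first of these was above the 268 to 390 CPM of the other 4, and without it the log2 fold change was 2.47. Values of 254, 184, 369, 120 and 373 CPM followed after 2 days (2.09, SE 0.27, adjusted p = 2.9e-05). All 5 of these mice exceeded every control.

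After 3 days Ppargc1a was at 93.6, 104, 204, 173 and 85.3 CPM, and 1 of these 5 mice lay within the range of the controls (log2 fold change 1.13, SE 0.23, adjusted p = 0.00122). After 4 days the values were 336, 308, 221, 266 and 268 CPM, all above those of the 3-day mice (against RT 2.20, SE 0.16, adjusted p = 4.4e-08). After 5 days they were 248, 215, 226, 169 and 334 CPM (1.97, SE 0.18, adjusted p = 2.1e-07). Days 3 and 4 were not compared by a test. Ordered by their means, the groups ran from 6 hours through 1 day, 4 days, 2 days, 5 days and 3 days to RT, and each neighbouring pair in this order overlapped in range.

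Between 6 hours and 5 days the level of Ppargc1a fell by 1.65 on the log2 scale (SE 0.19, adjusted p = 1.2e-06), and all 5 mice of the later group were below those of the earlier. In that comparison 5 of 9 members were called (4 of 8 without Esrrb, which passed the filter through its 6-hour group), beside 35.8% of all genes tested called and 23.5% not overlapping. From 6 hours to 1 day it fell by 0.86 (SE 0.24, adjusted p = 0.0201), a call that was lost with DESeq2's Wald test (adjusted p = 0.0692) and in 4 of the 10 fits that left out 1 mouse. Of the 9 members, 1 was called higher and 1 lower between these time points, beside 9.19% and 7.75% of all genes, or 16.9% called and 12.1% not overlapping.

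The gene lies on the minus strand of chromosome 5 (51454250 to 51567726, GRCm38). Cyclic AMP acts on Ppargc1a through its promoter, so the bases before the upstream end of the annotated gene are shown. Whether cyclic AMP acts through this stretch or at another start of the gene was not tested. The stretch, chr5:51567727-51567975 read 5′ to 3′ along the gene (RefSeq promoter table, GRCm38.p6), is printed with the short core of the cyclic AMP response element in capitals, here in reverse complement (CGTCA).
Ppargc1a: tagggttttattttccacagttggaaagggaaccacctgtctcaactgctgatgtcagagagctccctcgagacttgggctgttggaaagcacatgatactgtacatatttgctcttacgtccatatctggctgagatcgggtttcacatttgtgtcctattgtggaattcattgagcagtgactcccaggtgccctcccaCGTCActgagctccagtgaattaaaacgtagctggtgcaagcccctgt
The full palindrome TGACGTCA was not among these letters. Searched on both strands, TGACG was in 20.8% and TGACGTCA in 1.79% of all 32817 promoter windows of 300 bases. Counts from 3′ ends do not tell which of several start sites a transcript came from.

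Genes known to act on Ppargc1a were called in both directions. After 6 hours, 4 of the 16 tested in that list were called higher and 3 lower, beside 21.5% and 21% of all genes. These shares lay near those of all genes and are no result about the list. Crem, a cyclic AMP-responsive regulator, rose from 7.04 to 17.9 CPM (1.33, SE 0.16, adjusted p = 2.7e-06). Foxo1 rose from 82.0 to 147 CPM, and Atf2, a stress-kinase target that binds the cyclic AMP element, from 53.2 to 86.4 CPM. Nr1d1, a clock repressor, fell from 39.4 to 5.38 CPM (log2 fold change -2.90, SE 0.20, adjusted p = 5.5e-09), and Mef2c fell from 36.1 to 20.1 CPM.

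After 5 days 5 of the 16 were called higher and 4 lower, beside 20.2% and 18.6% of all genes. Foxo1 now stood below RT, at 47.2 CPM (log2 fold change -0.80, SE 0.13, adjusted p = 8.3e-05). Mef2c was lower as well (-0.99), and so was Nr1d1 (-0.46), a call lost in 7 of 10 fits without 1 mouse. Both catalytic subunits of AMP-activated kinase were higher, Prkaa2 by 0.97 (SE 0.18) and Prkaa1 by 0.62 (SE 0.13), as was the p38 kinase gene Mapk14 by 0.55 (SE 0.16).

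Clock genes also differed between RT and cold mice. Of the 13 genes of the clock list, 5 were called higher and 6 lower after 6 hours (median log2 fold change -0.34), beside 21.5% and 21% of all genes. After 5 days 3 were higher and 10 lower (median -1.42), beside 20.2% and 18.6%. The share called higher after 5 days lay near that of all genes. Dbp, an output gene of the clock, stood at 77.7 CPM at RT, 12.0 after 6 hours and 8.72 after 5 days. Per3 and Tef, also clock genes, were lower after 5 days, by log2 fold changes of -2.98 and -2.22, and Cry1 and Per2 were higher after 6 hours by 1.80 and 1.26. The hour of collection is not given in the sources used here, and its part in any member's change was not tested.

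Ppargc1b, the close relative that also coactivates ERRs, did not rise. At RT its values were 244, 251.6, 176, 233 and 224 CPM, and after 6 hours 186, 199, 193, 188 and 215 CPM, within the range of the controls. The log2 fold change was -0.22 (SE 0.10, adjusted p = 0.087). After 1 day it was -0.03 (SE 0.13, adjusted p = 0.888).

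It was lower from 2 days on. After 3 days the 5 mice had 140, 159, 165, 140 and 133 CPM, all below every control (log2 fold change -0.60, SE 0.11, adjusted p = 0.00048). After 4 days values of 121 to 186 CPM gave -0.54 (SE 0.12, adjusted p = 0.00269), with 3 of 5 mice below all controls. After 5 days 142 to 195 CPM gave -0.46 (SE 0.11, adjusted p = 0.00391), with 4 of 5 below. The difference at 2 days was smaller, at -0.30 (SE 0.11, adjusted p = 0.0403), and this call was lost in 8 of the 10 fits without 1 mouse, with no filter on low counts and with a replicate block (adjusted p = 0.0902).

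The balance of the 2 coactivators was measured within each library as the ratio of their counts, with 2 counts added to each, which needs no scaling between libraries. The geometric mean ratio of Ppargc1a to Ppargc1b was 0.265 at RT (0.201 to 0.374 in single mice) and 3.68 after 6 hours (2.21 to 4.67). At 1 and 2 days it was 1.77 and 1.30, and at 3, 4 and 5 days it was 0.844, 1.80 and 1.42. In each of the 6 cold groups all 5 mice exceeded all controls. The difference on the log2 scale was 3.80 after 6 hours and, at its smallest, 1.67 after 3 days, each with p = 0.00794 in an exact two-sided permutation test, the smallest 5 against 5 mice can give (adjusted p = 0.0119 over 12 such tests).

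**Figure D2:**
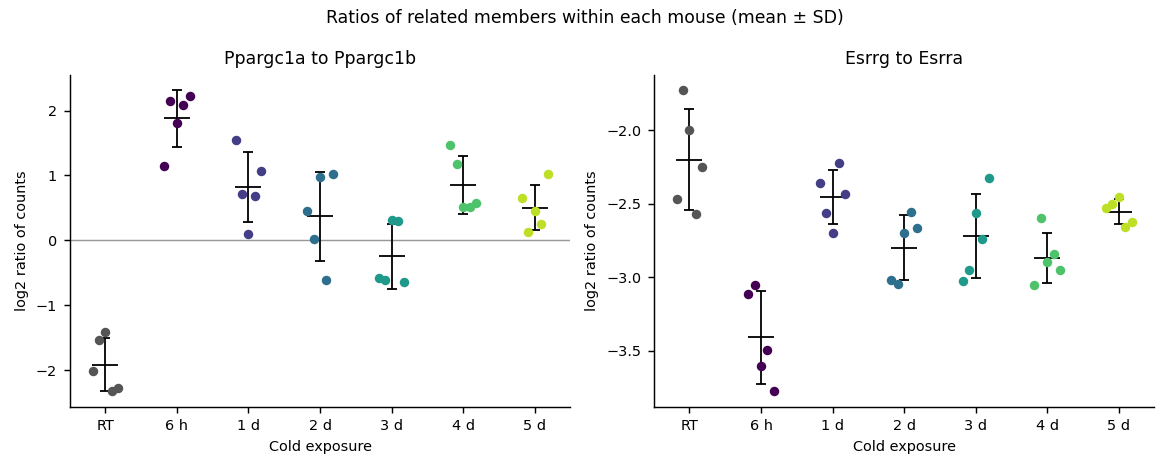
Log2 ratio of counts (y axis) of Ppargc1a to Ppargc1b (left) and of Esrrg to Esrra (right) within each mouse, by cold exposure (x axis), with the mean and SD of 5 mice. All cold mice lay above the RT controls on the left, and all 5 mice of the 6-hour group lay below them on the right.

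Of the 3 ERR genes, Esrra rose at every time point. At RT it stood at 60.6, 46.5, 56.3, 51.5 and 58.4 CPM, and after 6 hours at 94.8, 84.3, 103, 87.7 and 107 CPM. No 6-hour mouse overlapped with the controls, and the change was 1.72-fold (log2 0.78, SE 0.10, adjusted p = 1.1e-05).

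Later groups kept part of this difference. Mean Esrra was 76.6 CPM at 1 day and 81.5 CPM at 2 days, then 73.9, 75.2 and 72.8 CPM at 3, 4 and 5 days, and the log2 fold changes against RT lay between 0.41 and 0.57. All 5 mice of each of these groups exceeded all controls, except after 1 day, when 4 of 5 did. From 6 hours to 5 days Esrra fell by 0.37 (SE 0.10, adjusted p = 0.00711). Scaled by library size only, the rise kept its direction and was no longer called after 1 day (adjusted p = 0.099) and 5 days (adjusted p = 0.239).

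Esrra is on the minus strand of chromosome 19 (6910977 to 6921813). Its last 73 exonic bases overlap Trmt112 on the opposite strand, where 3′ reads fall, and whether strand was used in counting is not given in the sources used here. Without it, reads of the pair cannot be told apart. Trmt112 had a log2 fold change of -0.07 after 6 hours (SE 0.20, adjusted p = 0.799), when Esrra was highest, and was called after 3 days (0.60), 4 days (0.80) and 5 days (0.97, SE 0.14, adjusted p = 3.48e-05). The bases before the Esrra start (chr19:6921814-6922058, minus strand, RefSeq, GRCm38.p6) are shown because they hold the NRF1 core GCATGCGC, in capitals. This core was in 2.71% of all windows and in no other of the member windows searched, which leave out Ppargc1b.
Esrra: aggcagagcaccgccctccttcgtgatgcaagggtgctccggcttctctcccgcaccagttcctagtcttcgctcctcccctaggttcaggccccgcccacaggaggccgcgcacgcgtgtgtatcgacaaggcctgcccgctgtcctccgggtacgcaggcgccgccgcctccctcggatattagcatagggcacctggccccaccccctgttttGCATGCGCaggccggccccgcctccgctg
The ERR core AAGGTCA was not among these letters in either orientation.

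Esrrb was near the limit of these libraries, with 1, 5, 2, 4 and 2 reads in the RT mice, 14 in all. After 6 hours it had 5, 17, 22, 13 and 17 reads, or 1.31 to 4.93 CPM beside 0.194 to 0.974 CPM at RT. At 4 days it had 11, 12, 14, 13 and 12 reads, all above the RT mice. Against RT the gene passed the filter on low counts only in this comparison, and only through its cold group, so no fold change or test is given there. At 5 days it had 12, 7, 5, 7 and 7 reads, which overlapped the 6-hour mice.

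By exact permutation of the mice (two-sided, on log2 CPM), Esrrb was higher in all 5 other cold groups, with p = 0.00794 after 6 hours, 2 days and 5 days, p = 0.0317 after 1 day and p = 0.0238 after 3 days. Adjusted over these 5 tests, the largest was 0.0317. All mice exceeded all controls after 6 hours, 2 days and 5 days, and 4 of 5 did after 1 day and after 3 days.

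Esrrg went the other way at 6 hours. RT mice had 10.6, 13.8, 13.7, 8.41 and 12.0 CPM and 6-hour mice 10.5, 9.73, 8.07, 7.33 and 7.43 CPM, with 3 of the 5 below all controls. The log2 fold change of -0.47 (SE 0.18, adjusted p = 0.0451) was past the threshold by little, and was no longer called with DESeq2 (adjusted p = 0.0589), with no filter, and in 7 of 10 fits without 1 mouse. At 1 to 5 days the log2 fold changes against RT were between -0.23 and 0.21, with adjusted p of 0.316 or more, and by library size only the values at 1 and 5 days turned from above to below 0.

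Between cold groups the difference was clearer. After 1 day Esrrg was at 12.1 to 15.4 CPM, all 5 mice above all 6-hour mice (log2 fold change 0.67, SE 0.17, adjusted p = 0.00982), a call kept in every fit without 1 mouse. After 5 days its values were 11.8 to 12.4 CPM, the tightest group of this gene, and again above all 6-hour mice (0.50, SE 0.17, adjusted p = 0.0273). That second call was lost in 3 of 10 fits without 1 mouse and by library size only (adjusted p = 0.0633).

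Within libraries, the ratio of Esrrg to Esrra counts had a geometric mean of 0.218 at RT (0.169 to 0.303) and 0.0941 after 6 hours (0.0729 to 0.120), a difference of -1.21 on the log2 scale (exact permutation p = 0.00794, adjusted p = 0.0119). All 5 mice were below all controls after 6 hours and after 4 days (difference -0.67, same p). The differences at 2 days (-0.60, adjusted p = 0.0212 by the exact permutation test) and 3 days (-0.52, adjusted p = 0.0476) were also called, and those at 1 day (-0.25, adjusted p = 0.206) and 5 days (-0.35, adjusted p = 0.0693) were not. The call at 3 days was lost in 7 of 10 tests without 1 mouse.

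Perm1, named for its induction by PGC-1 and ERR in muscle, followed the early peak and the low at 3 days seen for Ppargc1a. RT mice had 7.74, 16.0, 17.5, 13.2 and 19.1 CPM, and 6-hour mice 34.9, 67.2, 67.0, 56.5 and 69.5 CPM. The groups did not overlap, and the change was 3.97-fold (log2 1.99, SE 0.21, adjusted p = 6.6e-07). After 1 day the 5 values of 53.5, 38.5, 60.3, 67.7 and 47.2 CPM gave 1.86 (SE 0.20, adjusted p = 2.9e-06), and the difference from 6 hours was not called (adjusted p = 0.64).

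After 2 days Perm1 was at 24.4 to 38.7 CPM (log2 fold change against RT 1.22, SE 0.20). After 3 days it was at 17.5 to 25.5 CPM (0.65, SE 0.19, adjusted p = 0.0159), with 1 mouse inside the range of the controls, and scaling by library size only ended this call (adjusted p = 0.0677). Values of 19.6 to 41.7 CPM after 4 days (1.15, SE 0.22) and 30.7 to 37.9 CPM after 5 days (1.17, SE 0.18) were again clear of all controls. From 6 hours to 5 days it fell by 0.82 (SE 0.15, adjusted p = 0.00025).

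Because Perm1 and Esrrg are also muscle genes, the 14 skeletal muscle markers were read beside them. Their summed level was 167 to 1468 CPM at RT, 54.2 to 909 CPM after 6 hours and 348 to 449 CPM after 5 days, and none was at 0 in any group. After 6 hours 0 of the 14 were called higher by edgeR and 1 lower, Myl1, a myosin light chain (-0.63, SE 0.23, called in 5 of 10 fits without 1 mouse), and the median log2 fold change was -0.86. After 5 days 1 was called higher, Mb (myoglobin, 2.11, SE 0.35), and 7 lower, among them the myosin gene Myh2 (-2.50, SE 0.62). Among all genes tested, 21.5% were called higher and 21% lower after 6 hours, and 20.2% and 18.6% after 5 days. The part of muscle in the differences of Perm1 and Esrrg between groups was not tested. Within durations the correlation of Perm1 with the summed muscle markers was -0.15 (Spearman's rho -0.19, permutation p = 0.487 and 0.344), and that of Esrrg was -0.07 (rho -0.02, permutation p = 0.753 and 0.919). Each duration's mean was taken off first, so these values do not bear on the differences between groups.

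Perm1 is on the plus strand of chromosome 4 (156215868 to 156221307). The bases before its exons (chr4:156215677-156215867, RefSeq, GRCm38.p6) are shown because they hold the ERR core, in capitals and in reverse complement (TGACCTT), from base -202 to base -196 relative to the RefSeq start. It was the only one of 13 windows of 8 members with this core, which was in 4.72% of all windows.
Perm1: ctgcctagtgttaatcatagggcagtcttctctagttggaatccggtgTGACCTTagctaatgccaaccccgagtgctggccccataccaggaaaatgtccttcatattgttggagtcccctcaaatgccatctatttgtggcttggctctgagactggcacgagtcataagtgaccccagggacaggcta
Of the 9 members, 8 matched the promoter table, all but Ppargc1b.

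**Figure D3:**
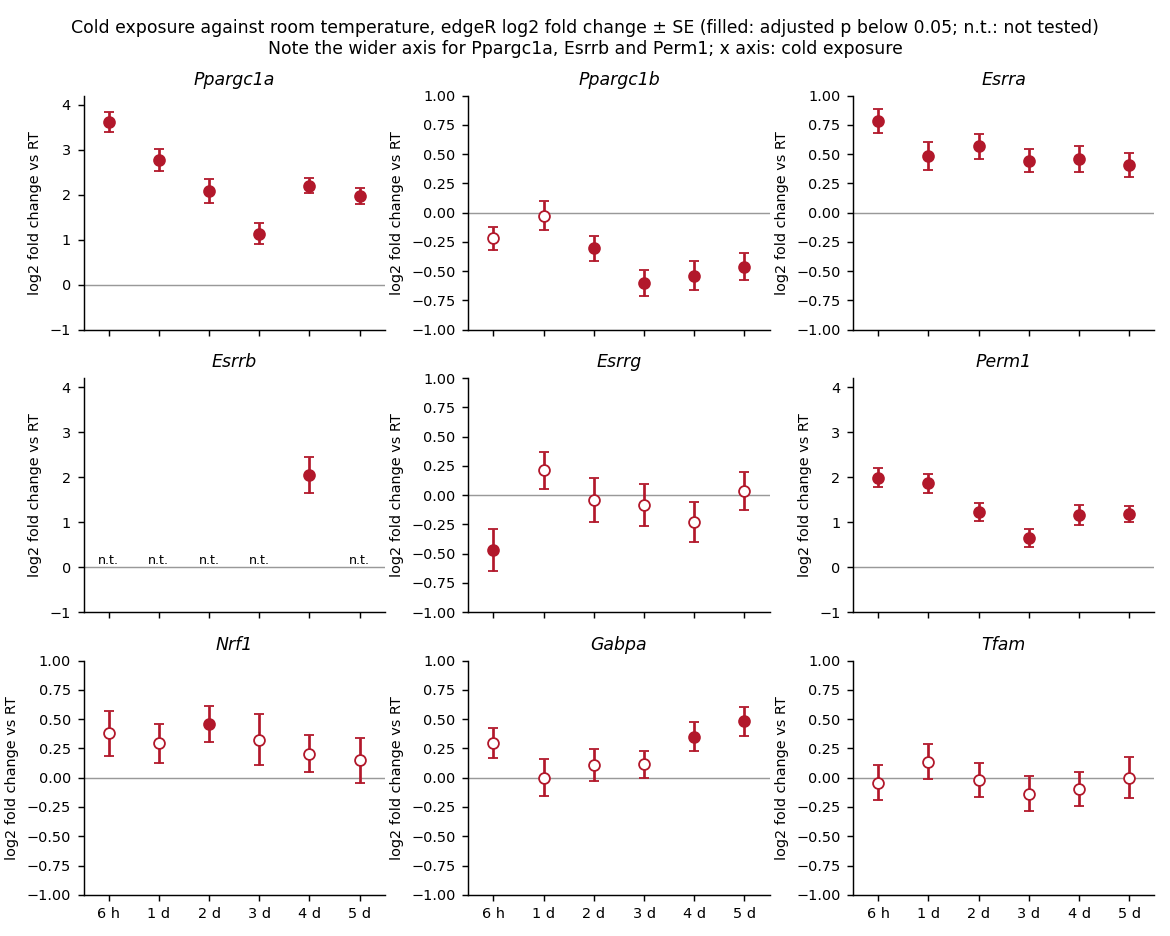
Log2 fold change against RT (y axis, wider for Ppargc1a, Esrrb and Perm1) of each member at each cold exposure (x axis), with SE bars from edgeR. Filled points had an adjusted p below 0.05, and n.t. marks Esrrb where it did not pass the filter. The Esrrb point at 4 days passed only through its cold group and is drawn as a description, so its fill is not read as a result. Ppargc1a and Perm1 are highest after 6 hours and lowest after 3 days, and the Tfam points lie between -0.14 and 0.14.

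Of the nuclear respiratory factors, Nrf1 was called at 1 and Gabpa at 2 of the 6 time points. Nrf1 (the nuclear respiratory factor, not Nfe2l1 or Nfe2l2) had 7.42 to 9.35 CPM at RT, 8.57 to 16.3 CPM after 6 hours (log2 fold change 0.38, SE 0.20, adjusted p = 0.127) and 6.19 to 11.6 CPM after 5 days (0.15, SE 0.19, adjusted p = 0.571). It was called only after 2 days, when 9.83 to 12.9 CPM were all above the controls (0.46, SE 0.16, adjusted p = 0.0347). That call was lost in 6 of 10 fits without 1 mouse, in the fit of all 35 libraries (adjusted p = 0.068) and by library size only (adjusted p = 0.293). With 28 to 75 reads per library, counting error alone makes small changes of this gene hard to see.

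Gabpa, the DNA-binding subunit of GABP (also called NRF-2), was higher late. RT mice had 17.0, 22.4, 19.0, 19.0 and 20.4 CPM. After 5 days the values were 30.6, 22.9, 29.3, 25.6 and 29.2 CPM, all above the controls (log2 fold change 0.48, SE 0.12, adjusted p = 0.00499), and the call held in each of the 10 fits without 1 mouse. It was lost when scaling by library size only (adjusted p = 0.155), where the direction stayed the same.

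After 4 days Gabpa had 0.35 (SE 0.12, adjusted p = 0.0303), called in 5 of 10 fits without 1 mouse. The call there was lost with a replicate block (adjusted p = 0.0645) and by library size only (adjusted p = 0.236). After 6 hours 4 of 5 mice exceeded all controls, but the change of 0.30 (SE 0.13, adjusted p = 0.0744) was not called. At 1, 2 and 3 days the log2 fold changes were 0.00, 0.11 and 0.11, and library size only turned them below 0. Exons of Gabpa and Atp5j overlap by 397 bases on opposite strands, 28236 bases from the 3′ end of Gabpa, and Atp5j was not called in any comparison.

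Among the 6 partners of these factors, 3 were called higher and 0 lower after 6 hours, beside 21.5% and 21% of all genes. After 5 days 1 was higher and 1 lower, beside 20.2% and 18.6%. The 5-day shares lay near those of all genes and are no result about the list. Gabpb2, which encodes a GABPA-binding subunit, rose from 16.4 to 26.2 CPM after 6 hours (0.65, SE 0.14, adjusted p = 0.00101). Nfe2l2, the regulator of antioxidant genes, rose from 65.2 to 87.5 CPM (0.41, SE 0.09). After 5 days Nfe2l1 was higher by 0.26 (SE 0.09) and Sp1 lower (-0.34, SE 0.11), calls lost in 7 and 4 of 10 fits without 1 mouse.

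Tfam was not called at any time point. Its values were 24.6, 36.2, 32.3, 20.3 and 29.5 CPM at RT, 29.4, 24.6, 29.4, 22.9 and 33.6 CPM after 6 hours, and 25.0, 32.9, 37.1, 19.5 and 28.8 CPM after 5 days. The ranges overlapped throughout. The log2 fold changes against RT were -0.04 after 6 hours (SE 0.15), 0.14 after 1 day (SE 0.15), -0.02 after 2 days (SE 0.15), -0.14 after 3 days (SE 0.15), -0.10 after 4 days (SE 0.14) and -0.0011 after 5 days (SE 0.17), with adjusted p between 0.5 and 0.997. A p that misses the threshold does not show that Tfam was unchanged.

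The bases around the ETS core of the Tfam promoter (chr10:71238074-71238102, minus strand, RefSeq, GRCm38.p6) are shown since GABPA binds such cores. They run from base -58 to base -30 relative to the RefSeq start and lie inside the annotated span of the gene (71225464 to 71238280). CCGGAAG, in capitals, was in 8.86% of all windows and, among the member windows searched (Ppargc1b left out), in those of Tfam and Gabpa.
Tfam: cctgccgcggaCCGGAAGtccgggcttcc
The TFAM product acts on mitochondrial DNA, whose transcripts held 38.4% to 41.3% of counts at RT, 41.5% to 42.6% after 6 hours and 33.6% to 44.6% after 5 days. The 6-hour mice all lay above the controls in this share, and the 5-day mice spread to either side.

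Other genes of mitochondrial DNA upkeep were called in both directions. After 6 hours 2 of 16 tested were called higher and 4 lower, beside 21.5% and 21% of all genes. After 5 days 2 of 17 were higher and 3 lower, beside 20.2% and 18.6% (median log2 fold change 0.03, beside -0.02 for all genes). The shares called lower lay near those of all genes and are no result about the list. Polrmt, the mitochondrial RNA polymerase, was higher after 5 days by 0.59 (SE 0.13, adjusted p = 0.00135), and the mitochondrial protease Lonp1 by 0.58 (SE 0.11). Mterf3, a repressor of mitochondrial transcription, rose after 6 hours by 0.95 (SE 0.18, adjusted p = 0.00033). Dguok, a kinase of the mitochondrial nucleotide supply, was lower after 6 hours (-0.80, SE 0.14), and Polg, the mitochondrial DNA polymerase, after 5 days (-0.38, SE 0.12).

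Mice of 1 group differed in Ppargc1a by up to several-fold, which allowed the members to be compared within durations. After each duration's mean was taken off, Ppargc1a and Perm1 had a Pearson's r of 0.32 over 35 mice (permutation p = 0.0658, adjusted p = 0.493 over 10 relations) and a Spearman's rho of 0.27 (permutation p = 0.108, adjusted p = 0.673). With the 2 mice of most extreme Ppargc1a left out, r was 0.44 (permutation p = 0.0135). For Tfam, r was 0.27 (rho 0.18, permutation p = 0.0986 and 0.326), and for the other 6 members it lay between -0.17 and 0.16. Without the same 2 mice, these 6 lay between -0.098 and 0.37, the highest being Esrrb (permutation p = 0.122), which turned from -0.05. No relation passed the adjustment, with the lowest adjusted p at 0.493.

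**Figure D4:**
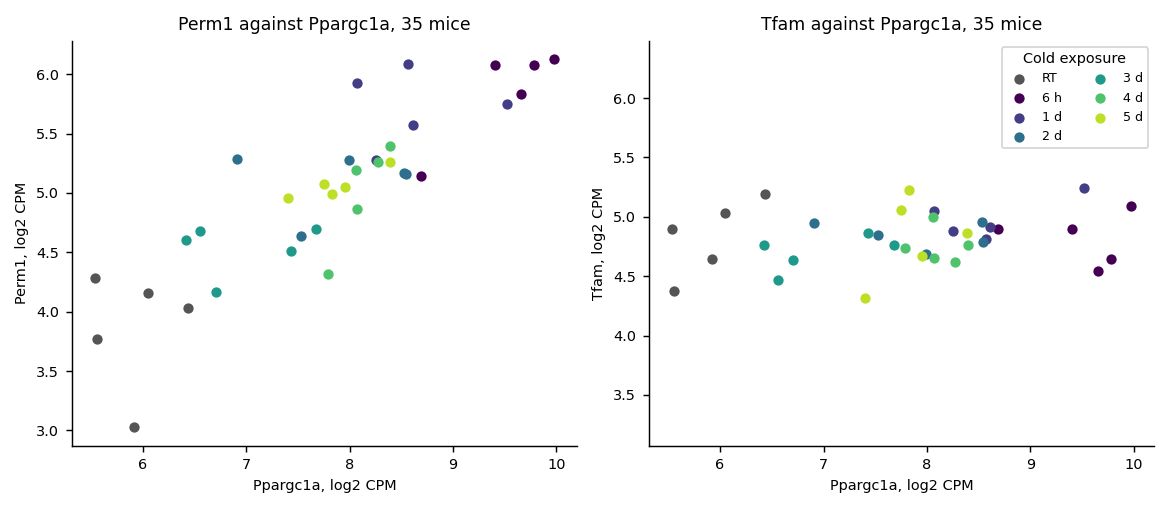
Log2 CPM of Perm1 (left) and Tfam (right) against log2 CPM of Ppargc1a (x axis) in 35 mice (points), coloured by cold exposure. The y axes span the same number of log2 units. Perm1 follows the differences between groups, and Tfam stays within a narrow band at all Ppargc1a levels.

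Over all 35 mice, differences between groups included, some genes outside the list had patterns close to those of the members. Among 6238 genes with a mean of at least 10 CPM, the likest to Ppargc1a were Usp16 (r = 0.92), Ncoa1 (0.90) and Eif1 (0.90). To Perm1 they were Armc1 (0.86), Usp16 (0.86) and Sacm1l (0.86), and to Esrra they were Ppif (0.89), Lman2 (0.85) and Mlx (0.84). For Ppargc1b they were Srsf11, Lmo7 and Gpat4 (r of 0.78 to 0.79), for Esrrb Tmx4, Tinagl1 and Txnrd1 (0.75 to 0.76) and for Esrrg Clpx, Acbd5 and Alkbh7 (0.63 to 0.74). Gabpa was likest to Rab1a, Ccdc58 and Serf2 (0.69 to 0.73) and Nrf1 to Blmh (0.67) and Taok1 (0.65). Within durations, Usp16, Ncoa1 and Eif1 had an r with Ppargc1a of 0.60, 0.67 and 0.45, and Armc1, Usp16 and Sacm1l an r with Perm1 of 0.21, 0.25 and 0.03. The lowest values over 35 mice were those of Tfam, with 9230114K14Rik, Mea1 and Rhot1 at 0.51 to 0.53. These points share libraries and groups, and the values are given as a description.

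Among other coregulators of the same receptors, 3 of 15 tested were higher and 3 lower after 6 hours (median log2 fold change -0.26), shares near the 21.5% and 21% of all genes and no result about the list. After 5 days 2 were higher and 8 lower (median -0.38), beside 20.2% and 18.6% of all genes. Ncoa1, the steroid receptor coactivator SRC-1, was at 25.0 CPM at RT and 55.0 after 6 hours, a rise of 1.12 (SE 0.13, adjusted p = 2.6e-06). Med1, the Mediator subunit that binds PGC-1, rose by 0.91 (SE 0.09) and the acetyltransferase gene Crebbp by 0.43 (SE 0.09).

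The acetyltransferase Kat2b was lower after 6 hours (-1.05, SE 0.14), with the corepressors Ncor1 (-0.51, SE 0.10) and Nrip1 (-0.47, SE 0.16). The Nrip1 call was lost in 3 of 10 fits without 1 mouse, over which its value ran from -0.54 to -0.24. After 5 days Nrip1 was at -0.84 (SE 0.21), Prdm16, a brown fat coregulator, at -0.66 (SE 0.15), and Ncoa2 at -0.58 (SE 0.17), all called.

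Of 9 nuclear receptors tested that work with PGC-1, the ERRs aside, 2 were called higher and 3 lower after 6 hours (21.5% and 21% of all genes), and 1 higher and 3 lower after 5 days (20.2% and 18.6%). Their higher share after 6 hours was that of all genes. Ppara, the fatty acid receptor, fell from 315 to 140 CPM after 6 hours (-1.19, SE 0.12, adjusted p = 5.2e-07) and stood at 248 CPM after 5 days. The thyroid hormone receptors Thra (-1.03, SE 0.10) and Thrb (-0.57, SE 0.11) fell at 6 hours as well. The 3 called lower after 5 days were the same genes, Thra (-0.53), Thrb (-0.45) and Ppara (-0.35). Of these calls, that of Ppara was lost in 6 of 10 fits without 1 mouse. Rxrg rose after 6 hours by 0.98 (SE 0.18), Nr1h3 by 0.64 (SE 0.15), and Rxrb was higher after 5 days by 0.59 (SE 0.12).

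**Figure D5:**
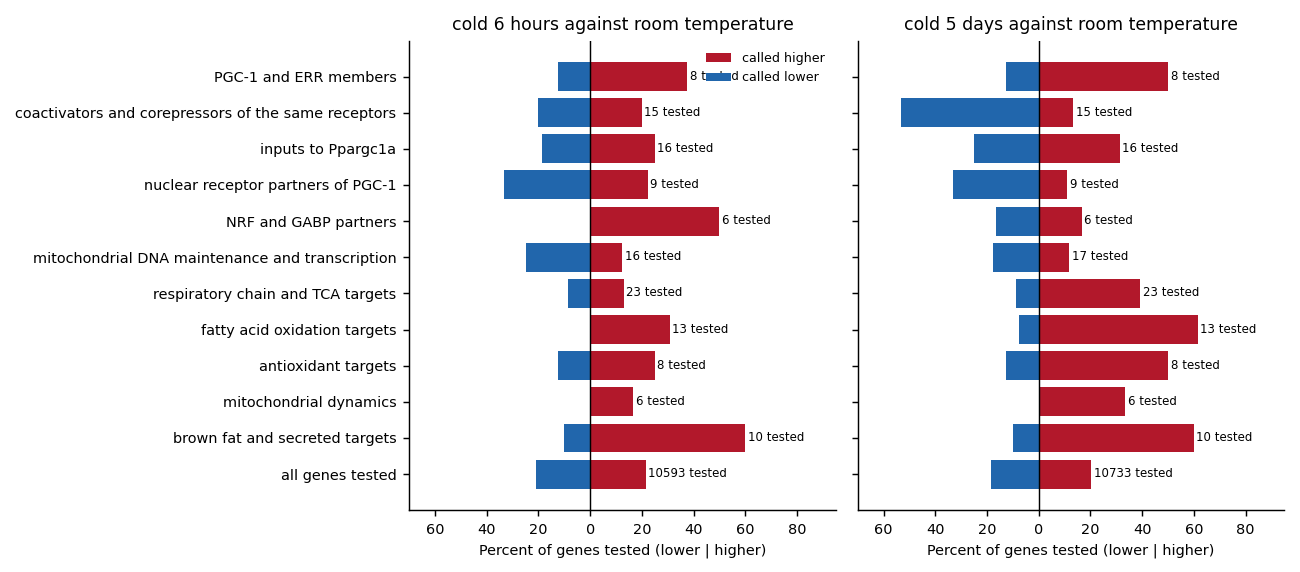
Percent of the tested genes of each list called higher (red, right of 0) or lower (blue, left of 0) against RT after 6 hours and after 5 days of cold exposure, with all genes tested in the bottom bar. The share of respiratory chain and fatty acid oxidation genes called higher was larger after 5 days, at 9 of 23 and 8 of 13, than after 6 hours, at 3 of 23 and 4 of 13, a difference that was not tested, while that of brown fat and secreted targets was 6 of 10 at both times.

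Lists of genes known as targets of PGC-1 and ERR were read beside all genes tested, of which 21.5% were called higher and 21% lower after 6 hours, and 20.2% and 18.6% after 5 days. In the list of respiratory chain and TCA cycle genes, 3 of 23 were higher and 2 lower after 6 hours (median 0.04). After 5 days 9 were higher and 2 lower (median 0.23, beside -0.02 for all genes). From 6 hours to 5 days 8 were called higher and 1 lower, where 19% and 16.9% of all genes were. Cycs, cytochrome c, was at 170 CPM at RT, 269 after 6 hours and 323 after 5 days, with log2 fold changes of 0.64 (SE 0.09) and 0.92 (SE 0.10).

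Idh3a and Mdh2, enzymes of the TCA cycle, were higher after 6 hours by 0.48 and 0.37. Uqcrfs1 and Cox7a1, subunits of complexes III and IV of the respiratory chain, were higher after 5 days by 0.94 and 0.91 and had 0.25 and 0.01 after 6 hours, neither called. The nucleotide carrier Slc25a4 was lower at both times (-0.29, a call lost in 7 of 10 fits without 1 mouse, and -0.44).

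Fatty acid oxidation genes had 4 of 13 higher and 0 lower after 6 hours (median -0.01), beside 21.5% and 21% of all genes. After 5 days 8 were higher and 1 lower (median 0.54), beside 20.2% and 18.6%. Fabp3, a fatty acid carrier protein, was at 537 CPM at RT, 1239 after 6 hours and 1013 after 5 days. Acsl1 (0.59) and Slc25a20 (0.40) were called after 6 hours, and Cpt2 (1.10, SE 0.11, adjusted p = 6.2e-07) and Pdk4 (1.32, SE 0.23) after 5 days, when Etfb was lower (-0.42). From 6 hours to 5 days 9 were called higher and 1 lower, beside 19% and 16.9% of all genes.

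Of 8 antioxidant genes, 2 were higher and 1 lower after 6 hours, beside 21.5% and 21% of all genes. After 5 days 4 were higher and 1 lower, beside 20.2% and 18.6%. The share called higher after 6 hours lay near that of all genes and is no result about the list. The mitochondrial thioredoxin Txn2 was called at both times (0.79 and 0.55), Sod2 after 6 hours (0.40), and Txnrd2 (0.76) and Prdx3 (0.57) after 5 days. Cat was lower after 6 hours (-0.27) and Prdx5 after 5 days (-0.28), calls lost in 4 and 5 of 10 fits without 1 mouse. Of 6 genes of mitochondrial fusion and fission, Mff was higher at both times (0.57 and 0.49) and Fis1 after 5 days (0.61).

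Brown fat and secreted targets had the largest median among the lists of targets, 0.74 after 6 hours and 1.18 after 5 days. At each time 6 of 10 were called higher and 1 lower. Among all genes 21.5% were higher and 21% lower after 6 hours, and 20.2% and 18.6% after 5 days. Dio2, the enzyme that activates thyroid hormone, was at 36.8 CPM at RT, 1581 after 6 hours and 341 after 5 days (log2 fold changes 5.41, SE 0.43, and 3.21, SE 0.41). Gk and Gadd45g rose after 6 hours by 2.62 and 2.55. Ucp1, the uncoupling protein of brown fat, was higher at both times (1.90, SE 0.17, and 1.98, SE 0.18). Fndc5 was higher after 5 days by 2.26 (SE 0.28), with no call at 6 hours (-0.80, adjusted p = 0.12). Angptl4, an inhibitor of lipoprotein lipase, was lower at both times (-1.76 and -0.79).

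Marker genes of the cell types in the tissue moved with time as well. They were read beside all genes tested, of which 21.5% were called higher and 21% lower after 6 hours, and 20.2% and 18.6% after 5 days. The summed level of 8 macrophage markers was 59.6 to 137 CPM at RT and 94.8 to 382 CPM after 5 days. After 6 hours 7 of them passed the filter on low counts, with 0 called higher and 2 lower. After 5 days 8 passed and 4 were called higher, among them Lgals3 (3.74) and Lyz2 (1.15). As passing depended on the level in the cold group, this count is not read as a result. Of 7 adipocyte markers, 2 were lower after 6 hours, Lipe (-0.69) and Adipoq (-0.40), and 1 was higher (Plin1, 0.31) and 2 lower (Adipoq, -1.12, and Cidec, -0.50) after 5 days, of which the Plin1 call was lost in 4 of 10 fits without 1 mouse. The summed adipocyte level ran from 11310 to 14524 CPM at RT and from 10143 to 11007 CPM after 5 days.

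Of 5 endothelial markers, Pecam1 (1.08) and Kdr (0.99) were higher and Tie1 lower (-0.61) after 6 hours, and Tie1 alone was called, lower (-1.02), after 5 days. Of 5 stromal markers 0 were called after 6 hours by edgeR, and 1, Dcn, was lower after 5 days (-0.38, lost in 3 of 10 fits without 1 mouse). Of 5 erythroid markers 3 were higher at both times, with Hbb-bt at 0.37 and 1.20, Hbb-bs at 0.44 and 1.08, and Alas2 at 0.52 and 0.57, and each of the 6-hour calls was lost in 5 of 10 fits without 1 mouse. The summed level of 3 proliferation markers was 3.31 to 6.19 CPM at RT and 9.17 to 36.7 CPM after 5 days. Only 1 of them passed the filter on low counts after 6 hours, and 2 did after 5 days. As passing depended on the level in the cold group, their calls are not read as a result. The part of these shifts in the changes of the 9 members was not tested.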

How the data were processed

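Interscapular brown adipose tissue of 35 male mice was profiled by QuantSeq 3′ FWD sequencing, 5 mice in each of 7 groups. The deposited values are raw read counts per gene, which the authors made, per the labels, with STAR 2.6.1d and HTSeq 0.11.2 on GRCm38. Strand and multi-mapping settings are not given in the sources used here. Libraries held 3846016 to 6047247 counts, so genes of few counts, such as Esrrb, were measured with large counting error. Samples were grouped by their treatment labels. As the labels do not say how libraries relate to cohorts, p-values measure the spread between these mice.

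In each comparison, genes were kept by filterByExpr, scaled by TMM and tested with edgeR 4.0.16 (R 4.3.3) by the quasi-likelihood test on the 10 libraries concerned, with Benjamini-Hochberg adjustment and a threshold of 0.05. An F test covered all 35 libraries. Ratios (2 counts added to each gene) and Esrrb under the filter were compared by exact two-sided permutation tests, and correlations within durations by 100000 permutations (scipy 1.17.1). Alternatives were DESeq2 1.42.0, other scaling, no filter, 1 fit of all libraries, leaving out each mouse and a replicate block. The fits were tested on simulated data.

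The members and gene lists were chosen with earlier results of these data known. Beside the members, up to 3 genes per list and direction with the largest change after 6 hours and after 5 days are named, if called and averaging 50 counts or more, and the 3 genes with the highest Pearson r to each member. Some genes that this rule names are not reported here. Promoter sequences are from RefSeq (GRCm38.p6), 250 bases before to 50 after each start.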

Additional observations from a re-analysis of the deposited data

Results flagged for a closer look

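Of 63 sets of 5 values examined, 9 members in 7 groups, 2 held a mouse far from the other 4, where chance gives about 1 in 20. Esrrb after 1 day had its lowest value in replicate 1, 0.373 CPM, with a gap on the log2 scale to the next mouse of 0.857 of the range of the group. Perm1 after 2 days had its lowest value in replicate 2, 24.4 CPM, with a gap of 0.798 of the range. Perm1 in that mouse still exceeded every control, while Esrrb in the first lay among the controls.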

How the results depend on the processing

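Of 723 recomputed counts, ratios and correlations, 672 kept their direction and side of the threshold, or stayed within 1.5 times for counts. Of the log2 fold changes of members and named genes, 2750 did so, 185 lost a call, 7 gained one and 50, all of members, turned. Scaling by library size only gave medians of all genes against RT of -0.15 to -0.25, beside -0.01 to -0.03 with TMM. Genes called higher and lower became 1342 and 3399 (6 hours), 1140 and 3218 (1 day), 931 and 2776 (2 days), 1339 and 2430 (3 days), 1440 and 2670 (4 days) and 1194 and 3347 (5 days). Members called lower after 6 hours became 2, members called higher after 5 days 2, and members called higher from 6 hours to 5 days 0. It turned the log2 fold change of Esrrg (1 day -0.0076, 5 days -0.196), Gabpa (1 day -0.228, 2 days -0.119, 3 days -0.024), Tfam (1 day -0.080, 5 days against 6 hours -0.0063) and Nrf1 (5 days -0.085). DESeq2 left 0 members lower after 6 hours and 0 lower from 6 hours to 1 day, and 1 fit of all libraries gave 2 there. With no filter, 0 members were lower after 6 hours, 0 after 2 days and 0 higher from 6 hours to 5 days. Small values turned for Tfam (0.0013 at 2 days and 0.033 at 5 days with no filter, 0.0049 at 5 days in 1 fit of all libraries) and Gabpa (1 day -0.0051 without mitochondrial genes and Gm42418). Within-duration correlations turned for Ppargc1a with Esrra (0.076 over 2 to 5 days) and Esrrb (0.13 over 2 to 5 days, 0.0092 by Spearman, 0.37 without the 2 mice of most extreme Ppargc1a). The cause was not tested.

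Leaving out 1 mouse gave 3 to 5 members higher and 0 to 1 lower after 6 hours, 0 to 1 lower after 2 days, 0 to 1 lower from 6 hours to 1 day and 0 to 1 higher from 6 hours to 5 days. The Esrrg to Esrra difference ran from -0.62 to -0.40 after 3 days and from -0.44 to -0.23 after 5 days. Values near 0 crossed it for Tfam (6 hours -0.14 to 0.057, 2 days -0.13 to 0.073, 4 days -0.20 to 6.8e-05, 5 days -0.11 to 0.12, 5 days against 6 hours -0.061 to 0.16), Ppargc1b (1 day -0.10 to 0.041), Gabpa (1 day -0.17 to 0.071), Esrrg (2 days -0.15 to 0.058, 5 days -0.069 to 0.10), and, for 1 day against 6 hours, Esrrb (-0.37 to 0.12) and Nrf1 (-0.19 to 0.089).

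Replicate numbers are shared across groups. Same-numbered mice had correlations of -0.33 to 0.15 over 40 pairs, with 0 comparisons in which every pair passed 0.1. The labels do not say what the number stands for, and such a check cannot exclude a batch that same-numbered mice share. The replicate block left 0 members lower after 2 days and ended the calls of Ppargc1b (adjusted p = 0.0902) and Nrf1 (adjusted p = 0.0683) at 2 days, and of Gabpa at 4 days (adjusted p = 0.0645), all by edgeR. It also ended the edgeR call of Esrrb from 6 hours to 5 days (adjusted p = 0.0809). That call had rested on Esrrb passing the filter through its 6-hour group, and it was lost in 8 of 10 fits without 1 mouse. The block turned Gabpa at 1 day (-0.027) and Tfam at 2 days (0.0034).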
